A study of Drosophila melanogaster with 20 samples.

Results

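Embryos mutant for mef2(65), a hypomorphic allele of the muscle transcription factor gene mef2, were compared with embryos of the dp cn a px sp control stock, in which that allele had been induced. The comparison used 8 of the 20 arrays of the series, 4 labelled mef2(65) and 4 labelled control. All whole embryos came from 30 min collections aged for 6.5 h at 25 °C, were staged one by one, and were collected at mid stage 13 in pools of 150. Mutant embryos were picked by the absence of a GFP-marked CyO balancer chromosome, and the control embryos carried the visible markers dp, cn, a, px and sp without a mef2 lesion. The labels rank Mef2 levels as lowest in the null allele, then 113, 424 and 65, and highest in the control, so 65 is the mildest of the 4 mutants. Of 10843 genes with a probe set of their own, 8356 passed the filter on dim probe sets and were tested, each through its brightest probe set.

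Mef2 is a MADS-box transcription factor that binds the enhancers of many genes of muscle differentiation. Stage 13 falls early in that process, when myoblasts fuse and sarcomeric genes are switched on. In the fly a hypomorph keeps part of the gene's function, and genes bound by one factor can differ in how much of it they need.

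The deposited values are MAS5 signals, an intensity scale on which each array had the same trimmed mean, and changes are differences of log2(signal + 16). A gene is called at a Benjamini-Hochberg adjusted p under 0.05 from limma, fitted over all 20 arrays. The labels do not state whether replicate arrays stem from independent embryo collections; p-values therefore reflect array-to-array spread alone, part of which may be technical. Within genotypes, pairs of arrays had a Pearson r of 0.964 to 0.977 over the tested genes; this is a correlation across genes, and genes are no independent replicates. The median SD within mef2(65) was 0.188, and within control it was 0.189, on the log2 scale. The run records place the mef2(65) arrays on fluidics modules 1 and 3 and all 4 control arrays on module 4. Of the mutant arrays only replicates 1 and 3 of the null ran on module 4. The control can therefore be separated from its module only through the null. The record of the wash of mef2(65) replicate 4 ends before completion. In that array 119 genes lay more than 1 log2 unit from the median of the other 3 mef2(65) arrays, against 63 to 67 genes in each of the others. Of 21 defining markers of the tissues of an embryo, 18 were tested, from muscle to germ line, and 4 of them were called (Mlc2, Mlc1, Doc1 and repo). Among all tested genes the share called was 6.09%. mef2 itself, and the sarcomere genes Mhc, Act57B, Tm1 and wupA, had no probe set of their own and were not analysed here, and the labels could not be checked against the mutated gene.

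In mef2(65) embryos 250 genes were higher and 259 lower than in control embryos, together 509 of the 8356 tested genes (6.09%; 2.99% higher and 3.1% lower). Most changes were small. The median size among called genes was 0.60 on the log2 scale, and 23 genes rose and 45 fell by at least 1, while the median over all tested genes was 0.01. At an unadjusted p under 0.05 there were 1385 genes. For 457 of the 509 called genes the 4 mef2(65) arrays lay wholly above or below the 4 control arrays, as they did for 904 tested genes in all (10.8%; 5.49% above and 5.33% below). Hybridisation day 1 held mef2(65) replicates 1 and 2 and control replicate 1, and day 3 held mef2(65) replicates 3 and 4 and control replicate 3. On both days 508 of the 509 differences had the fitted sign. The same arrays made the calls, so this is no independent check. With the fluidics module as a term, 64 genes were called, and 508 of the 509 kept their sign at a median of 1.004 times the size, with standard errors 1.82 times as large. In that fit the difference between module 4 and the other modules comes from the null arrays alone, so the kept sizes are a weak check. Without mef2(65) replicate 4 there were 437 calls, and 395 of the 509 remained.

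**Figure D1:**
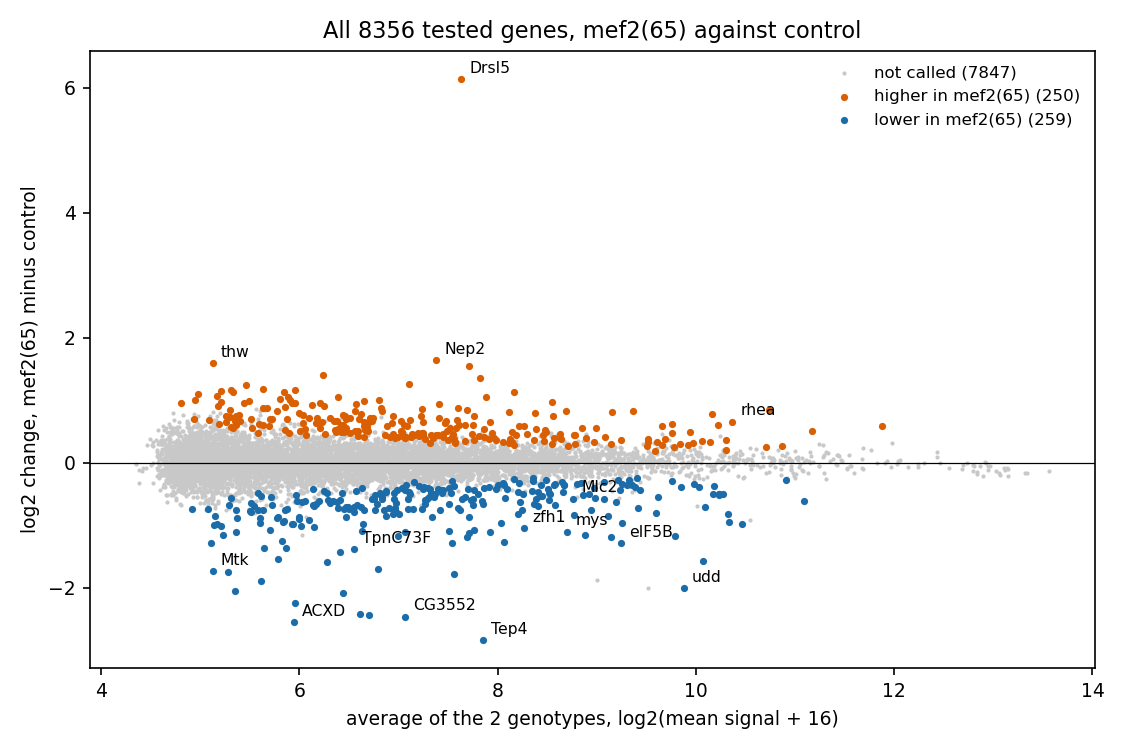
Log2 change of each tested gene, mef2(65) minus control (vertical axis), against its average log2(mean signal + 16) over both genotypes (horizontal axis). Each point is 1 gene, with 250 called higher and 259 called lower. Drsl5 stands alone at 6.15, and Tep4 is the lowest point at -2.84.

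The largest fall was that of Tep4, a thioester-containing protein of the complement-like immune family. Its signals were 66.6, 66.8, 68.7 and 77.1 in the mef2(65) arrays, against 779, 541, 541 and 552 in the control arrays. No array of either genotype came near the other genotype's range, and the log2 change was -2.84 ± 0.12 (SE; limma adjusted p = 1.02e-14), a ratio of 0.116. The other mutants did not share this level. Tep4 averaged 513 in mef2(424), 566 in mef2(113) and 596 in the null, and the direct tests of mef2(65) against them gave -2.61, -2.76 and -2.83 (limma adjusted p = 1.30e-13, 3.80e-14 and 5.24e-15).

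ACXD, an adenylyl cyclase, averaged 9.51 ± 5.07 in mef2(65) embryos and 132 ± 10.7 in control embryos (SD, n = 4 each), a log2 change of -2.56. CG3552, which has no role given here, had 42.9, 45.1, 36.4 and 37.5 in mef2(65), against 367, 302, 334 and 204 in control, a change of -2.46. Both stood apart from control on every array, as the rule of choice required. Oseg2, an intraflagellar transport protein of cilia, averaged 13.1 ± 8.71 in mef2(65) and 117 ± 11.8 in control, at -2.24. Prosbeta2R2, a relative of the beta2 subunit of the proteasome, averaged 9.43 ± 3.03 in mef2(65) and 78.4 ± 9.84 in control, at -1.89. Signals of ACXD, CG3552, CG34247, Oseg2 and Prosbeta2R2 in mef2(65) were not called different from those of any other mutant in the direct tests. ACXD, for example, averaged 9.11 in mef2(424), 12.9 in mef2(113) and 7.39 in the null. The mef2(65) means of ACXD, Prosbeta2R2 and Oseg2 lie near the filter level of 9.29, and the sizes of their falls depend on the pseudocount. Prosbeta2R2 passed that filter only through the control arrays, where it was high. With pseudocounts of 1 and 64 the changes were -3.80 and -1.42 for ACXD, -2.97 and -0.95 for Prosbeta2R2, and -3.34 and -1.24 for Oseg2.

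Sid, a stress-induced DNase, averaged 26.0 ± 5.64 in mef2(65) and 163 ± 18.1 in control, at -2.09. CG34247 changed by -2.43, CG5039 by -2.43 and CG7484 by -1.78, with no overlap between the groups by the rule of choice. With a pseudocount of 64 the changes were -1.33 for Sid, -1.62 for CG34247 and -1.61 for CG5039. udd encodes a protein needed for transcription of ribosomal RNA genes. It had 502, 427, 433 and 438 in mef2(65), against 1917, 1570, 1667 and 2355 in control, at -2.01 ± 0.13 (SE; limma adjusted p = 2.85e-10). Its mean was 294 in mef2(113) and 388 in the null, but 2600 in mef2(424), from which mef2(65) differed by -2.47 in the direct test. CG8607 and CG7912 fell by 2.06 and 1.76 on the log2 scale to mef2(65) means of 3.75 and 5.19. Those means lie under the filter level, so that the size of these falls depends on the pseudocount. With pseudocounts of 1 and 64 the changes were -3.88 and -0.95 for CG8607 and -3.47 and -0.78 for CG7912.

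The largest rise was that of Drsl5, a member of the Drosomycin-like antifungal peptide family. Its signals were 1457, 1588, 1418 and 2095 in mef2(65), against 15.5, 1.15, 6.96 and 6.94 in control. The control mean of 7.63 lies under the filter level, and the log2 change of 6.15 ± 0.18 (SE; limma adjusted p = 8.30e-18) was 7.88 with a pseudocount of 1 and 4.56 with 64. It averaged 1007 in mef2(424), 1462 in mef2(113) and 8.13 in the null. Thus the 3 hypomorphs carried a high signal, and the null and the control a low one. Against the null the direct difference was 6.14 (limma adjusted p = 4.30e-18), and against mef2(113) it was 0.15 (limma adjusted p = 0.818).

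thw had signals of 56.3, 46.5, 37.9 and 38.0 in mef2(65), against 3.29, 3.57, 4.66 and 4.67 in control. These control signals also lie under the filter level, and the log2 change was 1.59 (3.17 and 0.67 with pseudocounts of 1 and 64). thw averaged 26.2 in mef2(113), 3.65 in mef2(424) and 4.82 in the null. It passed the filter only through mef2(65) and mef2(113), where it was high. Nep2, a neprilysin metalloprotease, averaged 273 ± 44.5 in mef2(65) and 79.4 ± 28.7 in control, at 1.64 ± 0.17 (SE; limma adjusted p = 2.94e-07). GstD5, a glutathione S-transferase, averaged 344 ± 32.6 in mef2(65) and 126 ± 21.4 in control, at 1.36, and mwh, a formin-like regulator of wing hair number, 197 ± 12.6 in mef2(65) and 72.6 ± 7.83 in control, at 1.27. All 4 mef2(65) arrays lay above all 4 control arrays for each of these genes, as the rule of choice required.

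larp, which encodes a La-related RNA-binding protein, changed by 1.55, with 341 ± 26.0 in mef2(65) and 108 ± 26.9 in control. Its other probe set, with a mean signal of 60.9 over all arrays, changed by 0.03, so the probe sets of larp disagree. The T-box gene bi changed by 1.16. Its signals were 45.8, 34.4, 41.9 and 45.3 in mef2(65), against 29.4, 6.04, 5.67 and 4.28 in control, where replicate 1 was the high array. pigs, which encodes a Gas2-like cytoskeletal linker, changed by 1.16 from a control mean under the filter level (2.21 and 0.50 with pseudocounts of 1 and 64). The other large rises were CG42324 at 1.41, CG15098 at 1.25, CG2233 at 1.17 and CG18528 at 1.16. With a pseudocount of 64 these were 0.84, 0.60, 0.58 and 0.64, and bi was at 0.50. With a pseudocount of 1, CG15098 was at 2.00, CG2233 at 1.82 and bi at 2.19. All 12 largest falls and 12 largest rises kept their calls when any 1 array was left out. They were chosen as the largest called changes without overlap, so this is no independent check. With the fluidics module as a term 19 of these 24 stayed called. The other 5 were CG15098, CG2233, bi, CG18528 and pigs (limma adjusted p = 0.083, 0.0958, 0.186, 0.0958 and 0.679). The changes of the first 4 were then 1.12, 1.34, 1.24 and 1.08, near their sizes without the term, and that of pigs was 0.64.

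**Figure D2:**
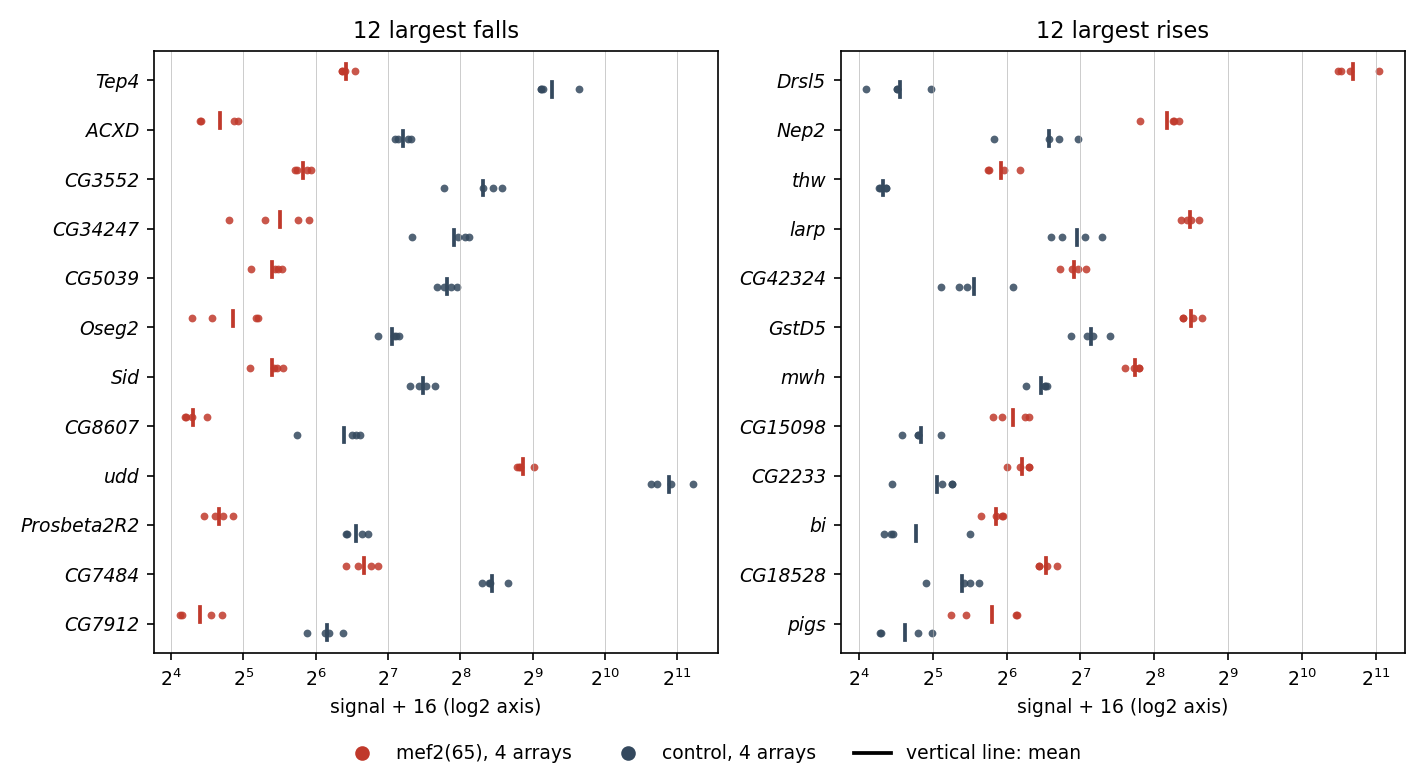
Signal + 16 on a log2 axis for the 12 largest falls (left) and 12 largest rises (right), with 4 mef2(65) arrays above 4 control arrays in each row. Points are arrays and vertical lines are group means. Only genes without overlap of the groups were eligible, and Drsl5 has the widest gap.

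Among genes of the contractile apparatus, falls outnumbered rises in mef2(65). The list of sarcomere proteins had 34 members, of which 17 were tested, 9 were on the array but under the filter, and 8 had no probe set of their own. Among the 17 tested, 4 fell, 1 rose and 12 were not called, against 3.1% of all genes lower and 2.99% higher. The median log2 change of the 17 was -0.31, beside 0.01 over all genes. It was -0.21 on day 1, against control replicate 1 alone, and -0.47 on day 3, against control replicate 3 alone. The summed signal of the list was 5653 to 6180 in mef2(65) arrays and 5983 to 6364 in control arrays. Act87E, which averaged 2700 in mef2(65) and 2423 in control, weighs most in this sum. These are whole embryos, so fewer muscle cells and less RNA per muscle cell cannot be told apart.

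The troponin C gene TpnC73F, whose product binds calcium on the thin filament, had the largest fall of the list. Its signals were 37.7, 49.2, 39.5 and 39.1 in mef2(65), against 182, 113, 154 and 97.9 in control, a log2 change of -1.38 ± 0.18 (SE; limma adjusted p = 1.16e-05). Every mef2(65) array was below every control array. Mlc1, the alkali light chain of muscle myosin, had 90.3, 94.2, 74.9 and 63.2 in mef2(65), against 159, 170, 179 and 114 in control, at -0.82 ± 0.19 (SE; limma adjusted p = 0.00879). Mlc2, the regulatory light chain, had 332, 387, 311 and 329 in mef2(65), against 517, 522, 570 and 449 in control, at -0.58 ± 0.13 (SE; limma adjusted p = 0.0047). unc-45, a chaperone that folds myosin heads, averaged 250 ± 11.2 in mef2(65) and 415 ± 63.6 in control, at -0.69 ± 0.12 (SE; limma adjusted p = 0.000662). None of these groups overlapped, as for 457 of the 509 called genes.

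The member that rose was tmod, tropomodulin, which caps the pointed ends of actin filaments. It averaged 923 ± 46.4 in mef2(65) and 705 ± 29.0 in control, at 0.38 (limma adjusted p = 0.00204). Its 2 other probe sets, with mean signals of 11.1 and 13.9, changed by 0.37 and -0.13, and the call was lost when the probe sets were averaged. Without the run that held the aborted wash, which took out mef2(65) replicate 4 and control replicate 3, Mlc1 was at -0.66 and not called (limma adjusted p = 0.109), and Mlc2 was at -0.51 and not called (limma adjusted p = 0.0525). With the fluidics module as a term none of the 5 was called, while the changes of TpnC73F, Mlc1, Mlc2 and tmod were -1.16, -0.69, -0.60 and 0.43, close to those above. unc-45 alone moved by over 1.5 times, to -0.44 (limma adjusted p = 0.557). With a pseudocount of 1, Mlc1 was at -0.93 and not called (limma adjusted p = 0.123), and with 64 TpnC73F was at -0.91.

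Among the 12 members without a call, the arrays of the 2 genotypes did not overlap for Msp300, a giant nesprin, or bt, which encodes projectin. The same held for 904 of the 8356 tested genes (10.8%), called or not, so it adds little for these 2. Msp300 averaged 83.9 ± 7.90 in mef2(65) and 140 ± 17.7 in control, at -0.64 (limma adjusted p = 0.0654), though its 2 dimmer probe sets were at 0.17 and -0.05. bt averaged 21.3 ± 3.87 in mef2(65) and 35.6 ± 4.83 in control, at -0.47. Mp20, a calponin-like protein, was at -0.67 with overlapping arrays. The troponin T gene up was at -0.31 and the tropomyosin gene Tm2 at -0.21. Mlp84B was at -0.31 and Strn-Mlck at -0.15, both with overlapping arrays. The other probe sets of Strn-Mlck, at mean signals of 17.5 and 6.02, changed by -0.805 and -0.16. Thin-filament and Z-disc genes with values nearest to 0 included the titin-related sls at 0.01, Zasp52 at -0.06 and the alpha-actinin gene Actn at 0.07. The muscle actins Act79B and Act87E were at 0.15 each. Whether the probe sets of these actins also bind transcripts of other actin genes was not tested. The 3 other probe sets of sls, at mean signals of 25.5, 2.71 and 1.86, changed by -0.44, -0.22 and 0.02, so its value near 0 rests on the brightest one. The 2 dimmer ones of Zasp52, at 66.3 and 28.5, changed by -0.01 and 0.17.

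**Figure D3:**
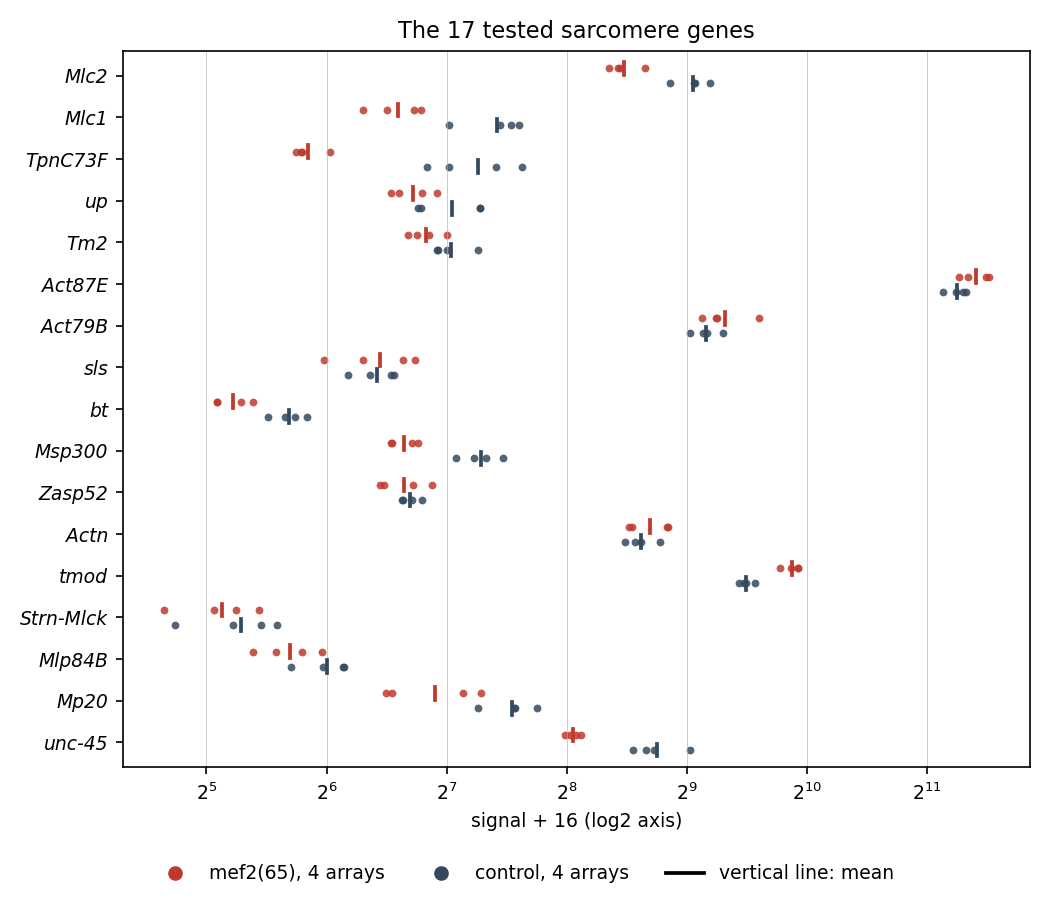
Signal + 16 on a log2 axis for the 17 tested sarcomere genes, with 4 mef2(65) arrays above 4 control arrays in each row and vertical lines at the group means. TpnC73F, Mlc1, Mlc2, unc-45, Msp300 and bt lie wholly lower in mef2(65), and tmod lies wholly higher. Over all tested genes 5.33% lie wholly lower and 5.49% wholly higher.

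The 6 other muscle lists together held 105 tested genes, of which 5 rose and 4 fell (8.57%, beside 6.09% over all tested genes), with a median log2 change of 0.01, beside 0.01 over all genes. Of 18 tested genes of the muscle membrane, calcium handling and energy supply, 1 fell and 1 rose, with a median of -0.10. GluRIIB, part of the glutamate receptor at neuromuscular synapses, had 4.09, 6.22, 11.1 and 14.1 in mef2(65), against 43.9, 26.8, 23.98 and 40.8 in control. Its mef2(65) mean lies under the filter level, and the log2 change was -0.999 (limma adjusted p = 0.0126). GluRIIB passed the filter only through the control arrays, where it was high. The call was lost without control replicate 1 or mef2(65) replicate 1, at -0.90 each. It was also lost with a pseudocount of 1, at -1.90 (limma adjusted p = 0.121), and the change was -0.42 with 64. Gpdh1, a glycerol-3-phosphate dehydrogenase, changed by 0.59 with overlapping arrays, and 6 of the 8 fits that left out 1 array lost its call (at 0.44 to 0.60).

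Of 15 tested myoblast fusion genes 1 rose and none fell, with a median of 0.13. This was lmd, a zinc-finger factor of fusion-competent myoblasts, which also stands among the mesoderm regulators. It had 253, 245, 260 and 295 in mef2(65), against 180, 128, 126 and 174 in control, at 0.75 ± 0.11 (SE; limma adjusted p = 8.32e-05), with no overlap. Of 17 tested mesoderm and myogenic regulators, 1 fell besides. This was zfh1, a zinc-finger homeodomain factor of the mesoderm, with 206, 232, 158 and 197 in mef2(65), against 496, 470, 352 and 396 in control, at -1.05 ± 0.13 (SE; limma adjusted p = 3.07e-06). Its mean was 69.8 in mef2(424), 285 in mef2(113) and 179 in the null, so mef2(65) lay between the other hypomorphs (direct differences of 1.31 from mef2(424) and -0.49 from mef2(113), limma adjusted p = 9.00e-08 and 0.0407).

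Of 29 tested muscle attachment genes 26 were not called, 1 rose and 2 fell, beside 2.99% higher and 3.1% lower over all genes, and their median was -0.03. mys encodes the betaPS integrin subunit that anchors muscles to tendon cells. Its signals were 271, 229, 295 and 278 in mef2(65), against 602, 564, 581 and 625 in control, at -1.11 ± 0.09 (SE; limma adjusted p = 1.21e-08). The groups were far apart, with little spread within either. mys averaged 213 in both mef2(424) and mef2(113) and 445 in the null, and mef2(65) was lower than the null by a direct log2 difference of -0.70 (limma adjusted p = 4.82e-06). Tig, the integrin ligand tiggrin, changed by -0.56, and the call was lost without mef2(65) replicate 3 or control replicate 1 (at -0.47 to -0.42). rhea, which encodes talin and links integrins to actin, averaged 1637 ± 84.4 in mef2(65) and 1035 ± 72.2 in control, at 0.66 (limma adjusted p = 1.11e-05), while its other probe set, also bright, changed by 0.02.

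Among 21 tested genes of muscle founder identity, 2 rose and none fell, with a median of 0.05. caup, an Iroquois homeobox gene, averaged 118 ± 5.46 in mef2(65) and 66.2 ± 13.5 in control, at 0.72 (limma adjusted p = 0.00057). Ptx1, a homeobox gene of ventral muscles, had 136, 136, 117 and 95.6 in mef2(65), against 45.3, 74.3, 74.8 and 76.6 in control, also at 0.72. Without control replicate 1, its lowest array, Ptx1 was at 0.58 and not called (limma adjusted p = 0.0511). No visceral muscle gene was called among 9 tested, with a median of -0.05.

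Lists of other tissues held at most 3 called genes each, beside 6.09% called over all tested genes (2.99% higher and 3.1% lower). In glia, repo, the homeobox gene that specifies glial fate, had 98.6, 84.5, 81.4 and 98.8 in mef2(65), against 59.8, 48.1, 50.3 and 59.6 in control, at 0.60 ± 0.12 (SE; limma adjusted p = 0.00131). Of 12 tested glial genes 1 rose and 1 fell, and their summed signal was 3225 to 3450 in mef2(65) and 3489 to 3669 in control. The gene that fell was Nrx-IV, a septate junction protein also listed under epidermis, at -0.31, and its call was lost without mef2(65) replicate 4 or any 1 of control replicates 1, 2 and 4 (at -0.32 to -0.22).

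Of 23 tested genes of epidermis and cuticle, mwh and Gasp rose and Nrx-IV fell, with a summed signal of 7980 to 8905 in mef2(65) and 7119 to 8114 in control. Gasp, a chitin-binding protein of tracheal cuticle, changed by 0.51, and 6 of 8 fits without 1 array lost the call (at 0.43 to 0.53). In the heart list of 18 tested genes the T-box gene Doc1 alone was called, at -0.42, and 5 of 8 such fits lost it (at -0.41 to -0.32). The list's summed signal was 1463 to 1517 in mef2(65) and 1544 to 1820 in control. Among 15 hemocyte genes ush, a partner of GATA factors, changed by -0.52, and among 12 gut genes peb, the zinc-finger factor hindsight, by -0.66. The ush call was lost in 4 of the 8 fits (at -0.47 to -0.41), and that of peb without mef2(65) replicate 4 or control replicate 1 (at -0.59 to -0.51). No gene of the fat body, neuron, germ line, sex or apoptosis lists was called, nor were cn and px, the measured genes among the visible markers of the control stock.

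Heat shock chaperone genes gave different values on the 2 days, where control replicate 1 alone stood for day 1 and control replicate 3 alone for day 3. Of 10 tested members 2 fell, beside 3.1% lower over all tested genes, with a median of -0.20 (-0.31 on day 1 and 0.00 on day 3). Hsp27, a small heat shock protein, had 173, 164, 285 and 677 in mef2(65), against 799, 624, 494 and 635 in control, at -1.15 (limma adjusted p = 0.0444). Its change was -2.15 on day 1 and -0.16 on day 3. DnaJ-1, an Hsp40 co-chaperone, was at -0.98, with -1.42 and -0.38 on those days. For both genes, 6 of the 8 fits without 1 array lost the call (at -1.17 to -0.92 for Hsp27 and -1.01 to -0.83 for DnaJ-1). Hsp26, chosen after its values were seen, had 49.4, 71.9, 272 and 1593 in mef2(65), against 1787, 845, 399 and 1071 in control, and was not called (limma adjusted p = 0.289). The mef2(65) arrays of day 1 were the lowest of the 8, and the change was -4.57 on day 1 and 0.71 on day 3. The control arrays used were at 1787 and 399, and those left out at 845 and 1071. The size of such day values therefore depends on which control array was used. Hsp68, chosen likewise, was at -4.10 and 0.39 on the same days.

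Of 12 tested immune genes, Drsl5 rose and Mtk, which encodes the antimicrobial peptide metchnikowin, fell, beside 2.99% higher and 3.1% lower over all genes. Mtk had 1.99, 2.02, 2.67 and 2.42 in mef2(65), against 69.1, 56.0, 65.5 and 11.5 in control. The mef2(65) signals lie under the filter level, and the log2 change was -1.74 (limma adjusted p = 7.87e-05), or -0.75 with a pseudocount of 64. Mtk passed the filter only through the control arrays, where it was high, and its p-value should be read with that limit. Mtk was also low in the other mutants, at 9.93 in mef2(424), 3.29 in mef2(113) and 3.56 in the null. In glycolysis, 2 of 8 tested genes fell, beside the same 3.1% lower over all genes. Eno, enolase, averaged 427 ± 55.7 in mef2(65) and 640 ± 35.0 in control, at -0.58 (limma adjusted p = 0.00104), and the aldolase gene Ald1 was at -0.29, a call lost in 7 of 8 fits without 1 array (at -0.31 to -0.25).

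In the cell cycle list of 17 tested genes, the cyclin gene CycB3 was at -0.28 and the kinase gene Cdk2 at 0.32. Among 15 genes of the ecdysone response, usp, the RXR-type partner of the ecdysone receptor, was at -0.58, and of 30 cytoplasmic ribosomal protein genes only RpS29 was called, at 0.28. Over all tested genes 6.09% were called. The calls of these lists were near the threshold. Leaving out 1 array lost them in 4 of 8 fits for CycB3 (at -0.28 to -0.25), 5 for Cdk2 (at 0.26 to 0.33), all 8 for usp (at -0.62 to -0.47) and 5 for RpS29 (at 0.22 to 0.29). Over the 26 called members of the lists outside the sarcomere, 10 kept their call whichever array was left out, and 5 were called with the fluidics module as a term (Drsl5, mwh, lmd, mys and zfh1). Among the other 21 that term moved 5 changes by over 1.5 times, to -0.24 for Eno, -0.41 for Hsp27, -0.39 for peb, -0.15 for CycB3 and -0.19 for usp. A pseudocount of 1 lost the calls of Gasp, usp and Hsp27 (limma adjusted p = 0.0589, 0.0681 and 0.0518).

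The next question was where mef2(65) stands among the mutants, for which it was tested directly against each of them without the control arrays. The mef2(65) embryos differed from mef2(424) in 389 genes (4.66%), from mef2(113) in 147 (1.76%) and from the null in 1364 (16.3%). Relative to mef2(424), 250 genes were higher (2.99%) and 139 lower (1.66%), and relative to mef2(113), 86 were higher (1.03%) and 61 lower (0.73%). Against the null, 793 were higher (9.49%) and 571 lower (6.83%). Against the mean of the other 3 mutants 414 genes were called (4.95%), 268 higher (3.21%) and 146 lower (1.75%) in mef2(65). After median centring the split was 622 higher and 785 lower against the null, and 211 higher and 194 lower against the mean of the 3, so neither direction should be read from the balance of calls. Of the 24 genes with the largest changes from control, 7 were called against mef2(424), 5 against mef2(113) and 9 against the null, and 10 against none of them. These tests share the mef2(65) arrays with the comparison that chose the genes.

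Several sarcomere genes were higher in mef2(65) than in the other mutants. Of the 17 tested, 5 were called higher than in mef2(424), 8 than in mef2(113) and 12 than in the null, and none was called lower in any of these tests. Over all tested genes the shares called higher were 2.99%, 1.03% and 9.49% in that order. Mlc2 averaged 46.3 in the null, 57.6 in mef2(113), 185 in mef2(424), 340 in mef2(65) and 514 in control. mef2(65) exceeded mef2(424) by 0.84, mef2(113) by 2.27 and the null by 2.52 (limma adjusted p = 8.98e-05, 1.02e-11 and 1.92e-13). Mlc1 exceeded mef2(113) by 1.70 and the null by 2.27, and its difference of 0.62 from mef2(424) was not called (limma adjusted p = 0.0703). TpnC73F was higher than in all 3, by 0.75, 1.69 and 1.56 in the same order. The troponin T gene up, not called against control, was higher than in mef2(424) by 0.74, in mef2(113) by 1.53 and in the null by 2.23, and Tm2 by 0.48, 1.25 and 2.08.

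unc-45 was an exception among the called sarcomere genes. It averaged 238 in the null, 235 in mef2(113), 241 in mef2(424), 250 in mef2(65) and 415 in control. The direct differences were 0.08 from the null, 0.09 from mef2(113) and 0.06 from mef2(424), each with a standard error of 0.12, and none was called (limma adjusted p = 0.744, 0.858 and 0.899). tmod likewise averaged 863 to 1019 in the other mutants and was not called against any of them. CG6972, which has no role given here, was among the 5 genes furthest above the other mutants. It averaged 8.30 in the null, 6.86 in mef2(113), 39.6 in mef2(424), 103 in mef2(65) and 274 in control.

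The 5 genes furthest below the mean of the other mutants were picked among called genes with all 4 mef2(65) arrays below all 12 other mutant arrays. How many tested genes lay so is not given here, and 146 (1.75%) were called lower in that test. Besides Tep4 they included eIF5B, a translation initiation factor, with 372, 393, 372 and 340 in mef2(65), against means of 842 in mef2(424), 852 in mef2(113), 1017 in the null and 932 in control. Its direct log2 difference from the mean of the other mutants was -1.25 ± 0.08 (SE; limma adjusted p = 5.66e-11), and that from control was -1.29 (limma adjusted p = 7.96e-10). The 2 other probe sets of eIF5B, with mean signals of 554 and 148, changed by -0.10 and -0.12 against control, so the fall rests on 1 probe set. Tmlh, a trimethyllysine hydroxylase, averaged 39.9 in mef2(65) and 112 to 126 in the other mutants, and CG7650, a phosducin-like protein, 28.8 in mef2(65) and 63.8 to 114 in the other mutants. Psf1, a subunit of the GINS replication complex, averaged 45.9 in mef2(65) and 90.0 to 123 in the other mutants, but its difference of -0.24 from control was not called.

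**Figure D4:**
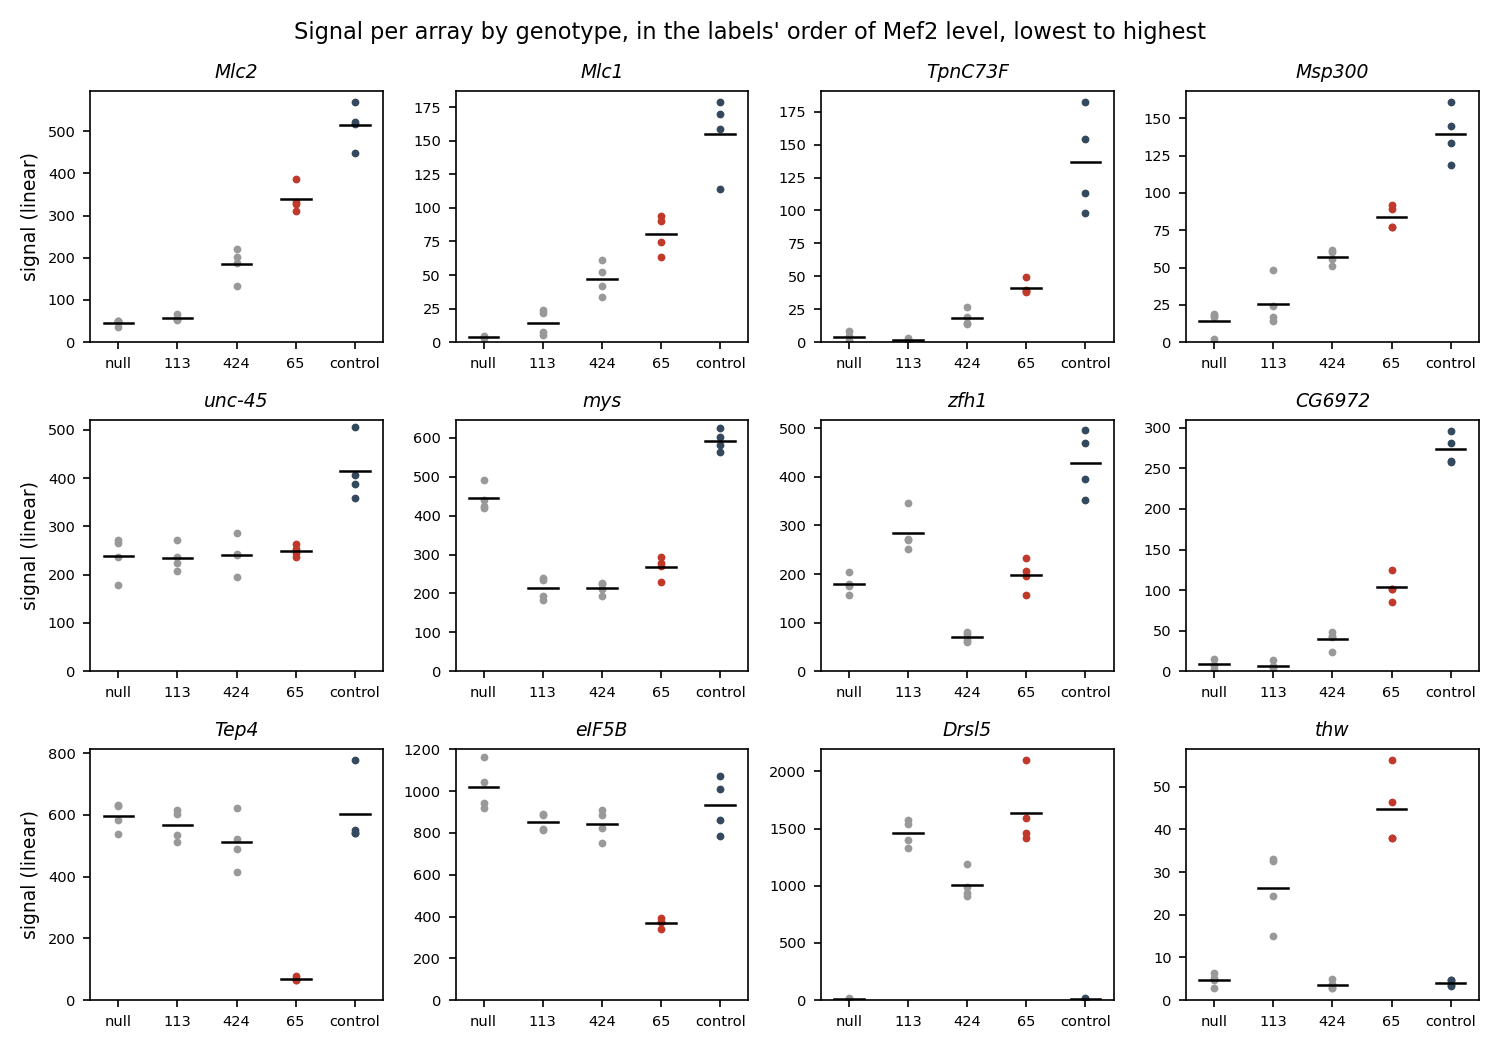
Signal per array on a linear axis for 12 genes in the null, mef2(113), mef2(424), mef2(65) and control, in the order of Mef2 level given by the labels; points are arrays and bars are means. Mlc2 and CG6972 in mef2(65) lie between control and the other mutants, the 4 mutant means of unc-45 lie between 235 and 250, and Tep4 and eIF5B are lower in mef2(65) than in each other genotype.

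Called genes were unevenly spread over the chromosomes. On chromosome 3, 343 of 3703 tested genes were called (9.26%), with 9.58% on arm 3L and 9.01% on 3R, against 80 of 3158 on chromosome 2 (2.53%) and 82 of 1415 on the X (5.80%). The mef2 gene lies on chromosome 2, arm 2R, where 42 of 1668 genes were called (2.52%). Of the 12 largest falls 10 were on chromosome 3, and of the 12 largest rises 8 were. The other hypomorphs, tested against the same control, also had the larger share called on chromosome 3. It was 13.2% there and 7.25% on chromosome 2 for mef2(424), and 11.0% and 3.96% for mef2(113). The null against control had 19.7% on chromosome 3 and 22.3% on chromosome 2. In the direct tests chromosome 3 held 6.35% called against 3.13% on chromosome 2 for mef2(424), 2.70% against 1.23% for mef2(113), and 15.3% against 20.1% for the null. These shares are a description with no test, since neighbouring genes are not independent.

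Some called genes were neighbours on the chromosome. Of the 507 called genes with a known place, 94 (18.5%) had a called gene next to them among the tested genes, beside 968 of 8323 tested genes in all (11.6%). On 3L the share was 23.7% of called genes, beside 18.2% of all tested genes there, and on the X it was 9.76%, beside 11.2%. The 2 longest runs, of 4 genes each and picked for their length, were on 3R. One held CG6726, CG17110, CG6733 and CG6738, all lower in mef2(65). The other held cno, Prosbeta2R2, CG1116 and CG2604, of which CG1116 was higher and the others lower.

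**Figure D5:**
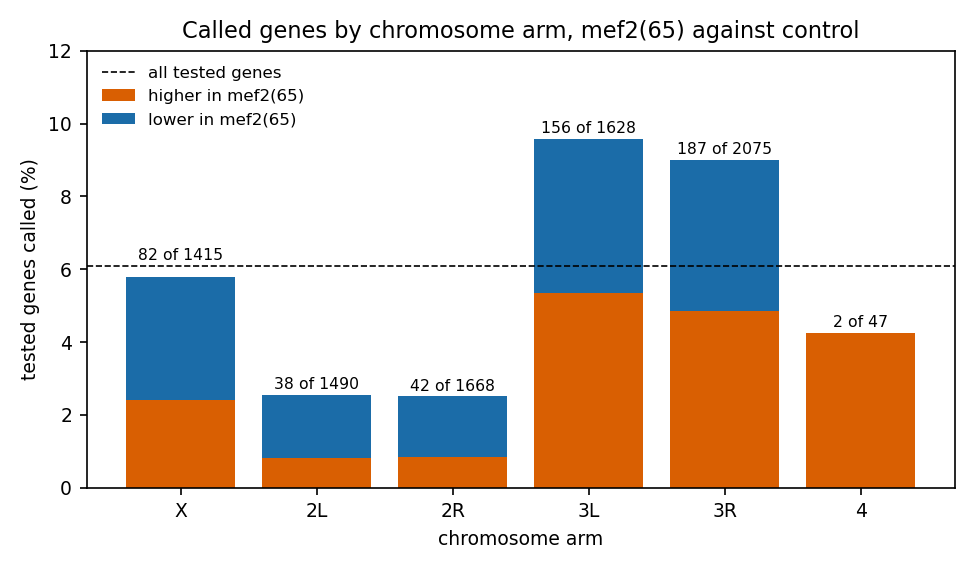
Share of tested genes called in mef2(65) against control on each chromosome arm (vertical axis, percent), split into genes higher and lower in mef2(65), with called and tested counts above the bars. The dashed line is the share over all tested genes, 6.09%; arms 3L and 3R stand above it, and 2L and 2R below it.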

How the data were processed

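The authors deposited linear MAS5 intensity values, 1 for each probe set on each array, as the submitters' processing notes name the tool. Its version is not given in the sources used here. Signals ran from 0.0579 to 15800, and each array's trimmed mean was 100.02. Of 14010 probe sets, 44 were controls, 12442 had 1 gene symbol, 327 several and 1197 none; 12393 of the 12442 matched the RefSeq Release 6 gene table, which gave current symbols and chromosomes. The brightest probe set stood for each gene, and the lowest 25% of probe sets by mean log2 value (signal 9.29) were left out. limma 3.58.1 in R 4.3.3 fitted log2(signal + 16) with 1 mean per genotype over 20 arrays (eBayes with a trend; 15 residual degrees of freedom, median prior 8.53), with Benjamini-Hochberg adjustment over 8356 genes and calls at an adjusted p under 0.05. The pseudocount understates changes of dim genes. Group values are mean ± SD of the signal. Scripts were tested on simulated data. Plots were drawn with matplotlib 3.10.9, and tables with pandas 2.3.3 and numpy 2.4.6 under python 3.11.15.

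Of the genes named, 70 are the 12 largest falls and 12 largest rises with no overlap of arrays, every tested sarcomere gene, every called member of the other 24 lists, and the 5 largest each way against the mean of the other mutants. The genes cn and px come from a list of the control stock's markers. Hsp26, Hsp68, the genes named for their runs of neighbours, and those in the closing observations other than GstD5 were chosen after their values were seen. The comparison, the lists and these rules were chosen with earlier results of these data known. Alternatives were pseudocounts of 1 and 64, other filters, normalizations and probe set rules, blocks for replicate, day, module and run, and leaving out arrays; the run block and the omitted run were chosen after seeing the data. The number of arrays limits the precision.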

Additional observations from a re-analysis of the deposited data

Results flagged for a closer look

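In 12 of 140 groups of 4 arrays that hold the values of a named gene, 1 array lay far from the other 3 by Dixon's test at the 95% level, which chance alone does in about 1 of 20 groups; 4 were in mef2(65) and 8 in control. Among mef2(65) arrays, replicate 1 was high for udd at 502 (others 427 to 438), replicate 2 for TpnC73F at 49.2 (37.7 to 39.5), replicate 3 was low for Eno at 344 (449 to 466) and replicate 4 for Nrx-IV at 386 (485 to 504). Control replicate 1 was high for Tep4 at 779 (541 to 552), bi at 29.4 (4.28 to 6.05) and Eno at 692 (616 to 629). The same array was low for CG8607 at 37.5 (75.1 to 81.7) and Ptx1 at 45.3 (74.3 to 76.6). Control replicate 4 was low for mwh at 60.9 (75.6 to 77.6) and high for usp at 160 (111 to 115), and control replicate 2 was high for Nrx-IV at 626 (557 to 568). Among these genes the calls of Ptx1, Nrx-IV and usp were lost without the array in question.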

How the results depend on the processing

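The fluidics module moved the counts most. With it as a term, 64 genes were called against control, 217 against mef2(424), 63 against mef2(113), 706 against the null and 273 against the mean of the other mutants, in place of 509, 389, 147, 1364 and 414; the cause was not tested, though the median standard error against control grew 1.82 times. Fitting only the compared groups left 92 calls against mef2(113), with fewer arrays in the fit. Leaving out 1 array gave 385 to 442 calls against control, 291 to 332 against mef2(424), 85 to 123 against mef2(113), 1107 to 1296 against the null and 279 to 423 against the mean; against mef2(113) the counts under 98 came without mef2(65) replicates 1 and 2 (85 and 97) or mef2(113) replicates 1 and 3 (92 and 90). The other settings kept each count within 1.5 times of its main value, from 370 without the run of the aborted wash to 600 with a replicate block for the comparison with control. Replicate numbers were not used to pair samples in the main fit. Arrays of mef2(65) and control with the same number correlated at 0.04, 0.07, 0.03 and 0.11 in their deviations. Pairs with different numbers correlated at -0.06 to 0.04. Each same-numbered value was the highest for its control array, so a weak pairing by number remains possible. The replicate block gave 600, 465, 183, 1581 and 541 calls in the 5 tests and lost no call of the 70 genes named by rule. None of their called changes turned sign under the alternatives run; genes named outside the rule were not run. Dropping the variance trend ended 10 of their calls, and fitting only the compared groups 9. Mtk has no value with a pseudocount of 1. Signals near or under 9.29 limit what can be said of dim genes.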

Other observations

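The following genes were chosen after their values were seen, and no group of them was tested. Of 31 tested glutathione S-transferases, which conjugate glutathione to reactive compounds, 1 was higher (GstD5) and 8 were lower, beside 2.99% higher and 3.1% lower over all tested genes, with a median log2 change of -0.16. GstD1 averaged 907 ± 74.7 in mef2(65) and 1785 ± 255 in control, at -0.96, and GstE3 424 ± 82.0 in mef2(65) and 835 ± 70.6 in control, at -0.97. The others were GstD3 at -0.34, GstD9 at -1.37, GstD10 at -0.86, GstE6 at -0.43, GstE7 at -0.42 and GstT4 at -0.52. GstD10, GstD9 and GstD1 are next to each other on 3R. GstE3 averaged 1479 in mef2(424), 532 in mef2(113) and 1329 in the null, so its level was above control in mef2(424) and the null. Whether probes for one member of this family bind transcripts of another was not tested.

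MtnA, a metallothionein that binds metal ions, had signals of 415, 344, 421 and 265 in mef2(65), against 924, 794, 772 and 843 in control, at -1.19. It averaged 382 in mef2(113), 634 in mef2(424) and 617 in the null. MtnB, the other of 2 tested metallothioneins, was dim, at 0.01 and not called (limma adjusted p = 0.995). Both genes for phosphoenolpyruvate carboxykinase, the entry enzyme of gluconeogenesis, were lower, Pepck1 at -0.39 and Pepck2 at -0.76. Pepck2 averaged 362 ± 38.7 in mef2(65) and 625 ± 57.1 in control. TwdlN was the only called gene of 14 tested Tweedle cuticle proteins, with 16.03 ± 5.99 in mef2(65) and 79.1 ± 27.7 in control, at -1.54.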
